A study of Saccharomyces cerevisiae with 2 samples.

Results

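Ergosterol is the main sterol of yeast membranes, as cholesterol is in animals. Acetyl-CoA is built up through mevalonate to squalene, which is then oxidized and folded into lanosterol, the first sterol of the pathway. Later enzymes remove methyl groups, add a methyl group to the side chain and shift or insert double bonds until ergosterol is reached. The pathway needs heme, iron and molecular oxygen, and in yeast its genes are known to be controlled by the sterol-sensing factors Upc2 and Ecm22.

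The data described here are the signals of the 10 genes for the enzymes between squalene and ergosterol in Saccharomyces cerevisiae, in pathway order ERG1, ERG7, ERG11, ERG24, ERG25, ERG6, ERG2, ERG3, ERG5 and ERG4. Their probe sets were found by name in the annotation of the array, without use of the signals. The choice of these genes was made with earlier results of these data known. Each of the 10 names had 1 probe set, so that 10 of 10928 probe sets and 10 of 5449 measured S. cerevisiae genes were taken.

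The comparison asked how transcript levels differ between cells grown on a dietary restricted (DR) medium with 0.5% glucose and cells grown on an ad libitum (AL) medium with 2.0% glucose. Both media held 1% yeast extract and peptone, and both cultures were of the haploid laboratory strain BY4742, of genotype Mat alpha, his3Delta1, leu2Delta0, lys2Delta0 and ura3Delta0, described as wild-type. Fresh cultures were started at an OD600 of 0.01 and grown at 30°C for 12 hours to an OD600 of 0.85 to 0.99. For each medium, 1 RNA sample was hybridized to 1 Affymetrix GeneChip Yeast Genome 2.0 array, so no difference below has a replicate check and no test was run.

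Most genes of the pathway had higher signals on the DR-labelled array than on the AL-labelled array. Of the 10 genes, 8 were past 2-fold in favour of the DR-labelled array, 0 in favour of the AL-labelled array, and ERG1 and ERG7 lay within 2-fold. Over all 5449 genes, 20.5% stood over 2-fold higher on the DR-labelled array and 24.3% on the AL-labelled array. Among the 4881 genes above background on at least 1 array these shares were 21.9% and 23.2%, and among the 2837 genes with a mean log2 signal in the range spanned by the 10 genes they were 20.7% and 26.3%. The median log2 ratio of the 10 genes, labelled DR over labelled AL, was 1.67, against a median of −0.12 over all genes. This direction is opposite to that in the tables of the study, which list ERG6, ERG5 and ERG3 as lower under DR, with folds of the same size turned the other way. The paper likewise links the genes lower under DR to sterol metabolism, among other terms. At the 2-fold cut-off the paper also counts more genes raised than lowered under DR, whereas here more genes were higher on the AL-labelled array. The array labels and the results of the study therefore run in opposite directions, over all genes as well as for these sterol genes. Which of them is right was not tested. The labels of the deposited arrays were kept and are named with every value, and each log2 ratio given here would take the opposite sign if they were exchanged.

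The arrays were checked with genes whose state is known from the genotype and mating type. The 10 genes that are deleted from the strain or silent in alpha cells had signals of 1.20 to 129.4 on the DR-labelled array and of 8.30 to 281.6 on the AL-labelled array, and the upper ends of these ranges are taken as background. Both upper ends were signals of STE6 alone. The next highest, both of STE2, were 56.6 on the DR-labelled array and 152.6 on the AL-labelled array. The 4 genes specific to alpha cells had signals of 5174 to 6278 on the DR-labelled array and of 222.6 to 1217 on the AL-labelled array, where MF(ALPHA)2 lay under background. All 4 were thus more than 2-fold higher on the DR-labelled array, as were most of the sterol genes. The arrays shared a common scale, with a mean over the probe sets, trimmed by 2% at each end, of 500.3 on the DR-labelled array and 500.2 on the AL-labelled array. The 27 probe sets for hybridization spike-ins had log2 ratios of −0.34 to 0.13. The signal of the 3′ probe set over that of the 5′ probe set is a measure of RNA integrity. For ACT1 (actin) it was 1.18 on the DR-labelled array and 1.47 on the AL-labelled array. For TDH1, another control gene, it was nearly the same, 1.13 on the DR-labelled array and 1.11 on the AL-labelled array. Of 14 bright control probe sets for ribosomal RNA, 8 stood over 2-fold higher on the DR-labelled array and 1 on the AL-labelled array. The part of RNA quality in the differences below was not tested. Each array reports on RNA pooled from a whole culture, so that fewer cells making a transcript and less of it per cell cannot be told apart.

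The first enzymes after squalene had similar signals on both arrays. ERG1 encodes squalene epoxidase, the target of the antifungal terbinafine, which adds oxygen to squalene. It had a signal of 2204 on the DR-labelled array and 2628 on the AL-labelled array, a ratio of 0.839. ERG7 encodes lanosterol synthase, which folds the epoxide into lanosterol, and had 1158 on the DR-labelled array and 1314 on the AL-labelled array, a ratio of 0.882. They are the only members with a slightly lower signal on the DR-labelled array, and the log2 ratio of ERG7, −0.18 as deposited, was 0.03 after removal of the trend on signal; all 4 of these signals lay well above background.

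The steps that strip methyl groups from lanosterol stood higher on the DR-labelled array. ERG11 encodes the lanosterol demethylase, a cytochrome P450 and the target of azole antifungals, and had a signal of 6831 on the DR-labelled array and 2979 on the AL-labelled array, a ratio of 2.29. ERG24 encodes the reductase that acts on the demethylated product, and had 2163 on the DR-labelled array and 1004 on the AL-labelled array, a ratio of 2.15. These ratios lie just past 2-fold, and that of ERG11 was a little under it with quantile normalization (log2 ratio 0.986) and after removal of the trend on signal (0.996). ERG25 encodes the oxidase that starts removal of the remaining ring methyl groups, and had 5249 on the DR-labelled array and 798.5 on the AL-labelled array. Its ratio of 6.57 was 3.05 times that of ERG24, the step before it.

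All 5 enzymes of the late part of the pathway stood over 2-fold higher on the DR-labelled array. ERG6 encodes the methyltransferase that uses S-adenosylmethionine to extend the sterol side chain, and had a signal of 4448 on the DR-labelled array and 1805 on the AL-labelled array, a ratio of 2.46. ERG2 encodes the sterol isomerase, which moves a ring double bond, and had 2858 on the DR-labelled array and 694.6 on the AL-labelled array, a ratio of 4.11. ERG6 thus had the smallest ratio of these 5 genes, and ERG3 the largest.

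ERG3 encodes the ring desaturase that acts after the isomerase. Its signal was 2264 on the DR-labelled array and 201.0 on the AL-labelled array, a ratio of 11.3 as deposited, and 86 of the 5449 genes had a higher ratio. With the labels exchanged its ratio would be 0.0888, and 86 genes would have a lower one. ERG5 encodes the side chain desaturase, the second cytochrome P450 of the pathway, and had 1330 on the DR-labelled array and 187.0 on the AL-labelled array, a ratio of 7.11 as deposited. For both desaturases the signal on the AL-labelled array lay under the background of 281.6, which is itself higher than the background of 129.4 on the DR-labelled array. That background is the signal of STE6 alone, and both desaturase signals lay above the next highest, that of STE2 (152.6). With this background, their ratios are best read as bounds, taken with the low signals raised to it. ERG3 was at least 8.04-fold higher on the DR-labelled array (log2 ratio 3.01 in place of 3.49) and ERG5 at least 4.72-fold higher (2.24 in place of 2.83), so that both stayed past 2-fold. ERG4 encodes the reductase of the final step, and had 4644 on the DR-labelled array and 685.0 on the AL-labelled array, a ratio of 6.78.

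**Figure D1:**
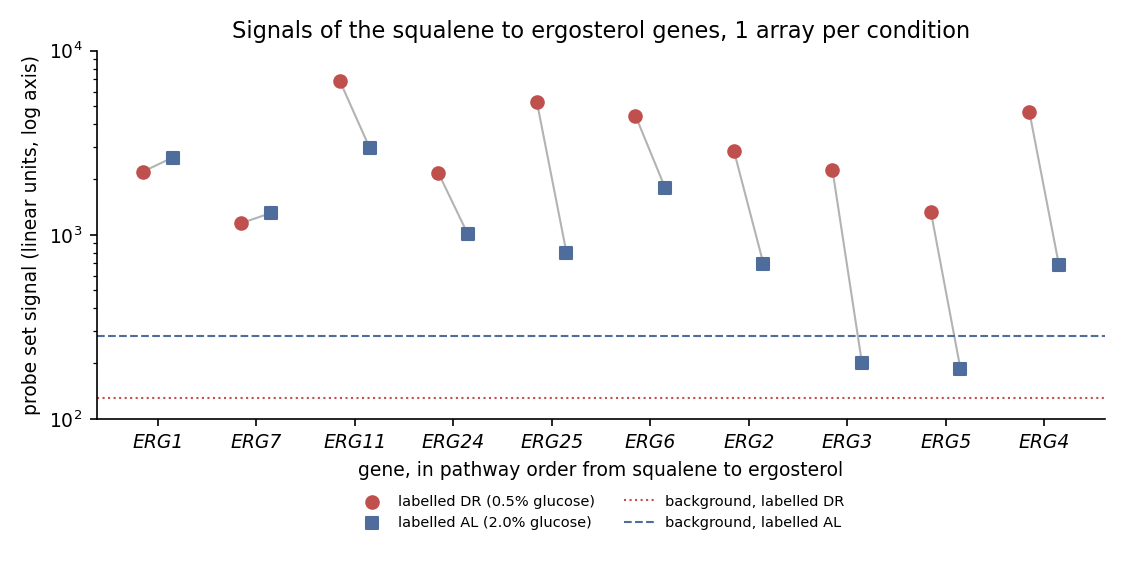
Probe set signal (log axis) of each gene on the DR-labelled array (circles) and on the AL-labelled array (squares), in pathway order, with 1 array per condition and lines joining the values of a gene. The dotted and dashed lines are the background levels of 129.4 (labelled DR) and 281.6 (labelled AL); only the squares of ERG3 (201.0) and ERG5 (187.0) lie under the background of their array, and probe sets differ in brightness, so heights are comparable within a gene and not between genes.

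Ordered by ratio as deposited, ERG3 (11.3) came first, then ERG5 (7.11), ERG4 (6.78) and ERG25 (6.57), then ERG2 (4.11), ERG6 (2.46), ERG11 (2.29) and ERG24 (2.15), and last ERG7 (0.882) and ERG1 (0.839). With the signals under background raised to it, ERG5 (4.72) fell behind ERG4 and ERG25 to the fourth place, while ERG3 (8.04) stayed first. With 1 array per condition there is no spread against which neighbours in this order could be told apart. The ratio of ERG4 was 1.03 times that of ERG25. The span of the list was wide, since the ratio of ERG3 was 13.4 times that of ERG1. A common scaling factor cancels from this span, but other treatments of the signals changed it, to 9.59 times with low signals raised to background and to 18.1 times after removal of the trend on signal.

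The order of the ratios largely followed the order of the steps. Over the 10 genes, the Spearman correlation between the position in the pathway and the log2 ratio was 0.903, 0.917 without ERG3 and 0.867 with low signals raised to background. The genes share the same pair of arrays and are not independent replicates, so this is a description of these arrays. ERG25 stood out of the order, with a ratio 2.67 times that of ERG6, the next of the 10 genes. The order leaves out ERG26 and ERG27, which work in a complex with ERG25 and had log2 ratios of 0.64 and 0.74. The median log2 ratio was 2.76 for the late genes (ERG6, ERG2, ERG3, ERG5 and ERG4), whose deletion yeast survives, and 1.11 for the early genes (ERG1, ERG7, ERG11, ERG24 and ERG25), a difference of 1.65 (1.13 with low signals raised to background).

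**Figure D2:**
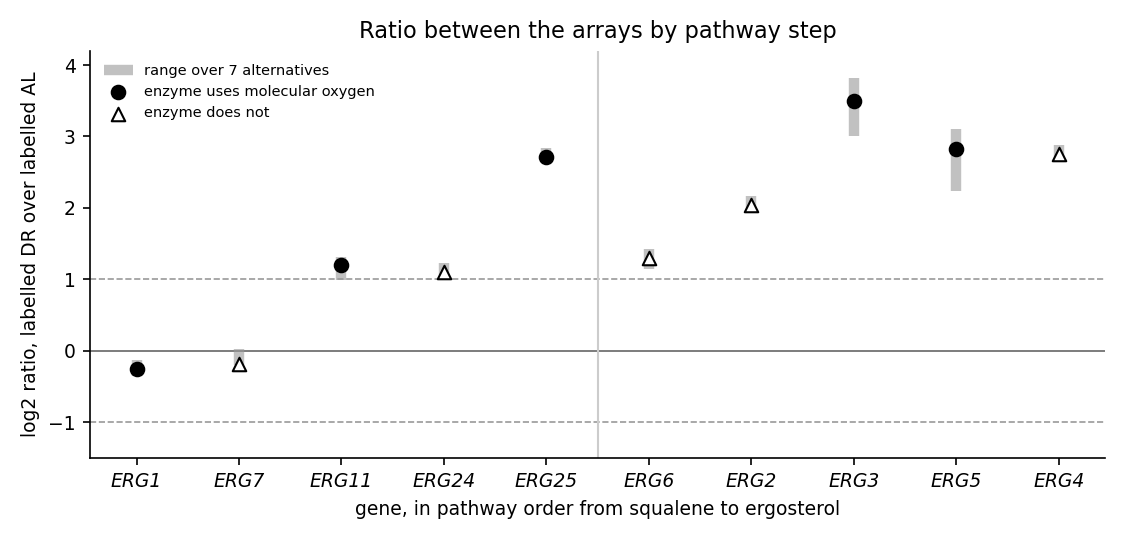
Log2 ratio of the DR-labelled array over the AL-labelled array for each gene in pathway order, with the early genes left and the late genes right of the vertical line; dashed lines mark 2-fold, and grey bars span the values under 7 alternative treatments of the signals. The points run from −0.25 for ERG1 to 3.49 for ERG3, and the bars of ERG3 (3.01 to 3.82) and ERG5 (2.24 to 3.11) are the widest.

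The pathway holds 3 pairs of enzymes of like chemistry, 1 early and 1 late in each pair, and in each pair the late gene had the larger ratio. Of the cytochromes P450, ERG5 had a ratio 3.10 times that of ERG11 as deposited, and 2.06 times with low signals raised to background. Of the sterol reductases, ERG4 had a ratio 3.15 times that of ERG24. Of the membrane oxygenases with an iron center, ERG3 had a ratio 1.71 times that of ERG25 as deposited, and 1.22 times with low signals raised to background. The 5 genes whose enzymes use molecular oxygen (ERG1, ERG11, ERG25, ERG3 and ERG5) had log2 ratios of −0.25 to 3.49 with a median of 2.72, and the 5 others had −0.18 to 2.76 with a median of 1.30. These ranges overlap almost fully. The difference between the medians was 1.42, and that between the means was only 0.59.

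Other enzymes and electron donors of this branch had a smaller median ratio than the 10 genes, although several stood above ERG1 and ERG7. Of 8 such genes, 2 stood over 2-fold higher on the DR-labelled array and 0 on the AL-labelled array, with a median log2 ratio of 0.68. The first count is near the share over all genes, which is 20.5% for the DR-labelled array and 24.3% for the AL-labelled array. NCP1, the reductase that passes electrons to the cytochromes P450, had a signal of 5271 on the DR-labelled array and 1697 on the AL-labelled array, a ratio of 3.11. CYB5, cytochrome b5, which serves the desaturases, had 390.3 on the DR-labelled array and 127.9 on the AL-labelled array, a ratio of 3.05 as deposited. The CYB5 signal on the AL-labelled array lay under background, and with it raised to background the ratio was 1.39. CBR1, the reductase that feeds cytochrome b5, had 3529 on the DR-labelled array and 2312 on the AL-labelled array. DAP1, a heme-binding partner of the demethylase, stood slightly the other way with 369.0 on the DR-labelled array and 503.0 on the AL-labelled array, a log2 ratio of −0.45.

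Within the complex that removes the ring methyl groups, only ERG25 was past 2-fold. ERG26, the decarboxylating dehydrogenase, had a signal of 2252 on the DR-labelled array and 1449 on the AL-labelled array. ERG27, the ketoreductase, had 2321 on the DR-labelled array and 1386 on the AL-labelled array, and ERG28, the scaffold that holds the enzymes together, had 1184 on the DR-labelled array and 779.7 on the AL-labelled array. ERG29, a further protein needed for this step, had 560.4 on the DR-labelled array and 339.1 on the AL-labelled array. The ratios of these 4 genes lay between 1.52 (ERG28) and 1.68 (ERG27), whereas that of ERG25 was 6.57.

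The mevalonate branch, which supplies squalene, leaned the same way. Of its 10 genes, 6 stood over 2-fold higher on the DR-labelled array and 0 on the AL-labelled array, with a median log2 ratio of 1.15. The shares over all genes are 20.5% and 24.3%. ERG12, mevalonate kinase, had a signal of 1222 on the DR-labelled array and 254.4 on the AL-labelled array, which lay under background. MVD1, mevalonate pyrophosphate decarboxylase, had 2021 on the DR-labelled array and 436.3 on the AL-labelled array. The last enzymes before squalene had the smallest ratios of the branch: ERG20, farnesyl pyrophosphate synthase, had 5654 on the DR-labelled array and 4503 on the AL-labelled array, and ERG9, squalene synthase, had 3874 on the DR-labelled array and 3330 on the AL-labelled array. ERG20, ERG9, ERG1 and ERG7, which follow each other at the middle of the whole route, were all within 2-fold. Of all 28 genes of sterol synthesis counted here, 16 stood over 2-fold higher on the DR-labelled array and 0 on the AL-labelled array.

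**Figure D3:**
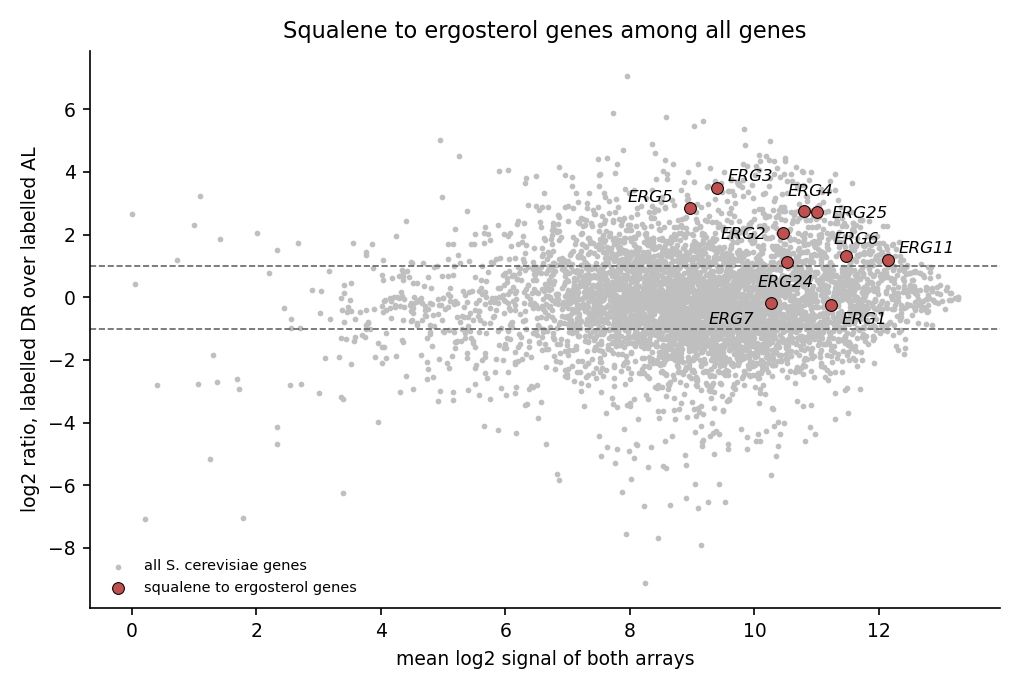
Log2 ratio (labelled DR over labelled AL) against the mean log2 signal of both arrays for 5449 S. cerevisiae genes (grey) and the 10 genes from squalene to ergosterol (red, named); dashed lines mark 2-fold. Above the upper line lie 8 of the 10 genes, ERG3 highest at 3.49, while ERG1 and ERG7 lie near 0.

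Regulators of sterol genes split between the arrays. Of 9 genes, 2 stood over 2-fold higher on the DR-labelled array and 3 on the AL-labelled array, with a median log2 ratio of −0.90. With so few genes, these counts are not far from the shares over all genes, 20.5% and 24.3%. UPC2, the inducible sterol sensor and activator of ERG genes, had a signal of 178.2 on the DR-labelled array and 34.6 on the AL-labelled array, and SUT2, a transcription factor related to the sterol uptake regulator SUT1, had 359.7 on the DR-labelled array and 64.1 on the AL-labelled array. Both signals on the AL-labelled array lay under background, and with low signals raised to background 0 of the regulators were past 2-fold on the DR-labelled array. Over all 5449 genes, 768 were past 2-fold on that array with signals so raised. MOT3, a repressor of ergosterol and low-oxygen genes, stood the other way with 135.0 on the DR-labelled array and 983.8 on the AL-labelled array, and SUT1 had 211.1 on the DR-labelled array and 851.7 on the AL-labelled array. The third gene higher on the AL-labelled array was ROX1, the heme-dependent repressor of low-oxygen genes, with 1097 on the DR-labelled array and 4079 on the AL-labelled array, and ECM22, the relative of UPC2, had 382.2 on the DR-labelled array and 714.1 on the AL-labelled array. ROX1 and ECM22 are named here after their values were seen.

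Genes that yeast expresses when oxygen or heme is low leaned the same way in part. Of 12, 6 stood over 2-fold higher on the DR-labelled array and 1 on the AL-labelled array, with a median log2 ratio of 1.34. Among all genes the shares are 20.5% and 24.3%. HEM13, an oxygen-using enzyme of heme synthesis, had a signal of 1726 on the DR-labelled array and 82.4 on the AL-labelled array, and TIR3, a cell wall mannoprotein, had 512.6 on the DR-labelled array and 51.4 on the AL-labelled array. COX5B, the low-oxygen isoform of a cytochrome c oxidase subunit, stood the other way with 964.7 on the DR-labelled array and 3040 on the AL-labelled array, and CYC7, an isoform of cytochrome c, had 937.5 on the DR-labelled array and 1389 on the AL-labelled array. Of the 12 signals on the AL-labelled array, 8 lay under background, and with signals raised to background the median was 0.16 and 2 genes were past 2-fold in each direction. With signals so raised, 768 of all 5449 genes were past 2-fold on the DR-labelled array and 1749 on the AL-labelled array. The median over all genes was then −0.39. Oxygen in the cultures was not measured in these files, and its part in the sterol gene differences was not tested.

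Suppliers of S-adenosylmethionine, the methyl donor of Erg6, stood higher on the DR-labelled array as well. Of 5 genes, 4 stood over 2-fold higher on the DR-labelled array and 0 on the AL-labelled array, with a median log2 ratio of 2.71. All genes together had shares of 20.5% and 24.3%. SAM1 had a ratio of 14.1 and SAM2 a ratio of 6.88, both being S-adenosylmethionine synthetases, and the ratio of ERG6 itself was 2.46. MET6, methionine synthase, had 6988 on the DR-labelled array and 1423 on the AL-labelled array, and ADO1, adenosine kinase, had 3260 on the DR-labelled array and 2126 on the AL-labelled array.

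Among lists of other membrane lipids, fatty acid synthesis leaned the same way, and most sphingolipid genes lay within 2-fold. For fatty acid synthesis and elongation, 6 of 10 genes stood over 2-fold higher on the DR-labelled array and 0 on the AL-labelled array (median log2 ratio 1.20), and the lowest ratios were 1.36 for ELO1 and 0.941 for TSC13. The fatty acid elongases ELO3 and ELO2 led the list, but their signals on the AL-labelled array (218.8 and 123.0) lay under background, so ELO3 was at least 14.3-fold and ELO2 at least 6.91-fold higher on the DR-labelled array. For sphingolipid synthesis, 2 of 16 genes stood over 2-fold higher on the DR-labelled array and 2 on the AL-labelled array (median 0.22). Beside both lists, the shares over all genes are 20.5% on the DR-labelled array and 24.3% on the AL-labelled array. SUR2, the sphinganine hydroxylase, had a signal of 2359 on the DR-labelled array and 890.8 on the AL-labelled array, and LCB2, a subunit of serine palmitoyltransferase, had 5351 on the DR-labelled array and 2042 on the AL-labelled array. CSH1, of mannosylinositol phosphorylceramide synthesis, had 484.5 on the DR-labelled array and 1062 on the AL-labelled array, and TSC3, an activator of serine palmitoyltransferase, had 386.1 on the DR-labelled array and 779.0 on the AL-labelled array. The sphingolipid counts moved with the scaling: 3 genes were past 2-fold on the DR-labelled array and 0 on the AL-labelled array after quantile normalization or with the trend on signal removed, whereas median centring gave 3 and 1. No test sets these lists apart from the 10 genes.

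**Figure D4:**
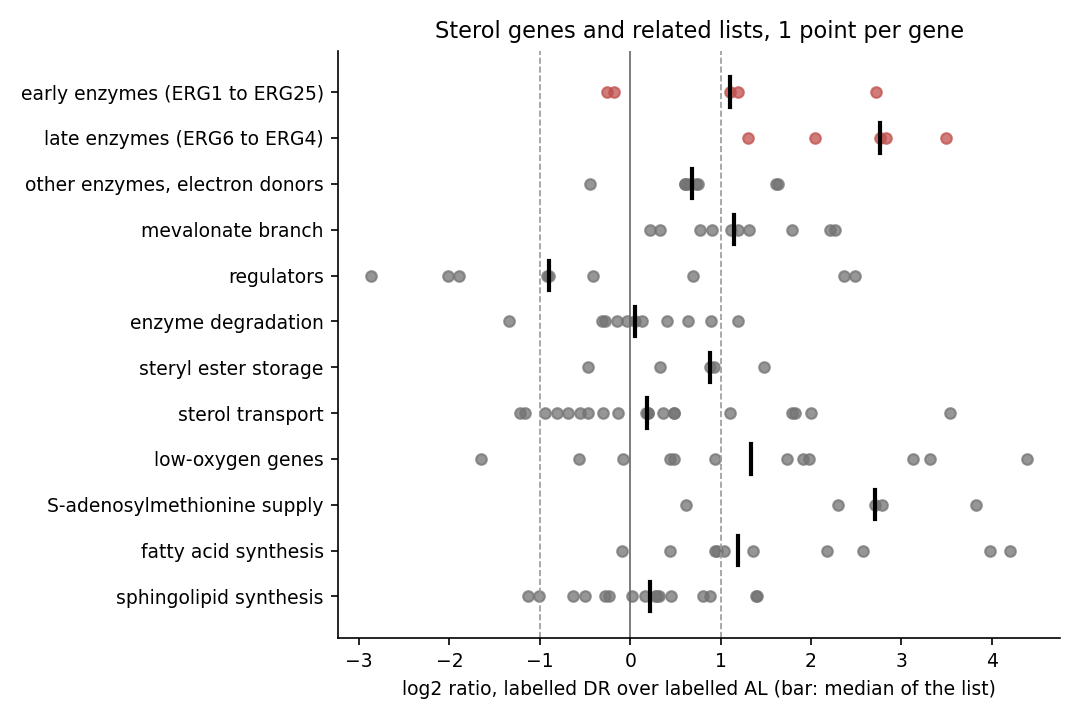
Log2 ratio (labelled DR over labelled AL) of each gene (points) in the early and late enzymes from squalene to ergosterol (red) and in 10 related lists (grey), with the median of each list as a black bar and dashed lines at 2-fold. The medians run from −0.90 for the regulators to 2.76 for the late enzymes and 2.71 for S-adenosylmethionine supply.

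The neighbours of these genes on the chromosomes were examined as well. In the gene order of RefSeq assembly R64, the 10 genes have 20 protein-coding neighbours, of which 19 had a probe set. Of these, 2 stood over 2-fold higher on the DR-labelled array and 9 on the AL-labelled array, with a median log2 ratio of −0.84, where the shares over all genes are 20.5% and 24.3%. The 2 genes were ADE6, of purine synthesis, next to ERG25, with 7611 on the DR-labelled array and 881.5 on the AL-labelled array, and ATF2, which acetylates steroids, next to ERG1, with 228.5 on the DR-labelled array and 91.2 on the AL-labelled array. Both were named after their values were seen.

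The array also carries probe sets named in lower case for genes outside the S. cerevisiae table. Of these, 8 bear the name of a member (erg1, erg2, erg5, erg6, erg7, erg11, erg24 and erg25), and their signals were 0.60 to 14.5 on the DR-labelled array and 0.70 to 10.6 on the AL-labelled array. All lay far under the signals of the S. cerevisiae genes of the same name.

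Over the pair of arrays, the genes whose log2 signals were nearest to the medians of the 10 genes (2544 on the DR-labelled array and 895.4 on the AL-labelled array) were ERP1, NTF2, ITR2, RPL38 and HNM1. Their distances ran from 0.050 for ERP1 to 0.088 for HNM1 in log2 units. ITR2 is an inositol transporter, HNM1 a choline transporter, RPL38 a ribosomal protein gene and NTF2 a nuclear transport factor. With only 2 arrays, such likeness says no more than that these genes had similar signals.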

How the data were processed

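Total RNA was labelled with biotin and hybridized to 1 Affymetrix GeneChip Yeast Genome 2.0 array per condition. The deposited values are linear intensities per probe set, which the authors' service laboratory normalized with the Affymetrix statistical algorithms. The sources used here give neither software version nor target level. Conditions were taken from the labels.

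Of 10928 probe sets, 7244 carried 1 gene symbol, 1 several and 3683 none in the platform annotation. Through its gene identifiers 5498 matched S. cerevisiae genes of RefSeq R64, 1746 did not. Where a gene had several probe sets, their log2 signals were averaged. The ratio is the DR-labelled array over the AL-labelled array, and counts are of genes past 2-fold in either direction. The number of arrays limits the precision, as do signals near background, and no p-value is given.

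The members and gene lists were chosen with earlier results of these data known. Named genes are the 10 members, all other enzymes and donors of the branch, and in each other list the 2 highest and 2 lowest ratios above background. The genes nearest to the member medians are the first 5 by distance.

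Background was the highest signal of 10 absent or silent genes, that of STE6 on both arrays. A lower background (95th percentile of probe sets outside the table, 11.7 on the DR-labelled array and 11.5 on the AL-labelled array) was chosen after seeing the data. Alternatives were median centring, quantile normalization, removal of a lowess trend (span 0.3), low signals raised to background, addition of the median background signal, omission of genes under background on both arrays, the brightest probe set, thresholds of 1.5-fold and 3-fold, means for medians, and exchanged labels. A value was said to move when it changed by over 1.5-fold. The script was tested on simulated data. Planned searches of promoters and comparisons of proteins were not run. Python 3.11.15, numpy 2.4.6, pandas 2.3.3, scipy 1.17.1, statsmodels 0.14.6 and matplotlib 3.10.9 were used.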

Additional observations from a re-analysis of the deposited data

How the results depend on the processing

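The count of the 10 genes more than 2-fold higher on the DR-labelled array was 8, and 7 or 8 under the 8 other treatments of the signals. It was 8 at 1.5-fold and 5 at 3-fold (ERG25, ERG2, ERG3, ERG5 and ERG4). The count higher on the AL-labelled array was 0 under all of these. The shares over all genes at 1.5-fold and 3-fold were not counted, so the member counts at those thresholds cannot be set against the series. With the labels exchanged the counts were 0 on the array then labelled DR and 8 on the array then labelled AL, and the median log2 ratio was −1.67. Otherwise this median ran from 1.62 to 1.79, and the difference of late and early genes from 1.13 to 1.77. The difference between oxygen-using and other genes was 0.59 with means in place of medians. Of the values for single genes, 79 stayed near the reported ones and 1 moved by over 1.5-fold (ERG5, 2.24 with low signals raised to background), and ERG7 turned to 0.03 after removal of the trend on signal. Of the values for related lists, 31 moved, among them a median for steryl ester storage of −0.32 with low signals raised to background. Over all genes, the share of calls that were higher on the DR-labelled array was 45.7%, and 30.5% with low signals raised to background, which put the median of all log2 ratios at −0.39.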

Other observations

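Genes for the storage, transport and turnover of sterols and sterol enzymes were mixed between the arrays. Of 5 genes of steryl ester storage, 1 was more than 2-fold higher on the DR-labelled array and 0 on the AL-labelled array, with a median log2 ratio of 0.89. YEH1, a steryl ester hydrolase, had a signal of 225.6 on the DR-labelled array and 81.0 on the AL-labelled array, and ARE2, the main sterol acyltransferase, had 218.4 on the DR-labelled array and 115.0 on the AL-labelled array, both under background on the AL-labelled array. TGL1, another hydrolase, had 1382 on the DR-labelled array and 1908 on the AL-labelled array, and ARE1 had 691.5 on the DR-labelled array and 548.4 on the AL-labelled array. Of 20 genes of sterol transport, 5 were more than 2-fold higher on the DR-labelled array and 2 on the AL-labelled array, with a median of 0.18; over all genes these shares are 20.5% and 24.3%. PRY2 and PRY1, secreted sterol-binding proteins, stood higher on the DR-labelled array, PRY1 with a ratio of 4.01 and PRY2 by at least 7.41-fold, its signal of 179.8 on the AL-labelled array being under background. OSH7, an oxysterol-binding protein homolog, had 894.8 on the DR-labelled array and 2077 on the AL-labelled array, and LAM4, a sterol transfer protein of membrane contact sites, had 444.7 on the DR-labelled array and 854.6 on the AL-labelled array.

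Of 11 genes that degrade enzymes of the pathway and other proteins of the endoplasmic reticulum, 1 was more than 2-fold higher on each array, with a median log2 ratio of 0.05. Shares over all genes are 20.5% on the DR-labelled array and 24.3% on the AL-labelled array. SSM4, the ubiquitin ligase known to act on squalene epoxidase, had a signal of 1651 on the DR-labelled array and 722.8 on the AL-labelled array. HRD1, the ligase known to act on an HMG-CoA reductase, had 942.1 on the DR-labelled array and 2378 on the AL-labelled array, while its partner HRD3 had 581.1 on the DR-labelled array and 312.0 on the AL-labelled array. USA1, a scaffold of that ligase, had 738.9 on the DR-labelled array and 916.3 on the AL-labelled array.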
